A study of Mus musculus with 12 samples.

Results

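The choroid plexus genes described here were 10 rows of a count table of 55418 genes, chosen by symbol: Ttr, Folr1, Kcnj13, Cldn2, F5, Kl, Clic6, Sostdc1, Aqp1, and Enpp2. All 10 were found, and all 10 passed the filter on low counts in every fit. RNA came from the brainstem (medulla and pons) of 12 outbred CFW (Swiss Webster) mice at postnatal day 15 (P15), with 1 library per mouse. Saline or 15 mg/kg morphine was injected subcutaneously 2 times daily from P1 through P14 within mixed litters, and tissue was taken 16 h after the last injection, in spontaneous withdrawal. There were 3 saline females (replicates 4, 5, and 6), 3 morphine females (1, 2, and 3), 3 saline males (1, 2, and 3), and 3 morphine males (4, 5, and 6). All 12 mice were injected on the same schedule, and the dam of each mouse, a covariate of the study, was not given in the sources used here.

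The choroid plexus is a folded epithelium that hangs into the brain ventricles and secretes cerebrospinal fluid. In the hindbrain it lies in the roof of the fourth ventricle, directly above the medulla and pons, so a brainstem sample can carry more or less of it. Its epithelial cells are joined by tight junctions, carry water and ion channels on their ventricular face, and release transport proteins such as transthyretin into the fluid. In bulk RNA, fewer choroid plexus cells and less of each RNA per cell cannot be told apart, and every level below has that limit.

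Library totals ran from 27850565 to 48097947 counts. Levels are CPM, counts scaled to a common library size, with TMM factors, which correct each library's total for its composition, and 1 count was worth 0.0219 to 0.0367 CPM. In the sex check a single library lay outside the range of either sex. In the library labelled morphine male 6, Xist, the RNA that silences an X chromosome, was at 380 CPM, against 0.398 to 2.71 CPM in the other 5 males and 547 to 970 CPM in the females. The Y-linked Ddx3y was at 12.8 CPM there, against 118 to 199 CPM in the other 5 males and at most 0.729 CPM in the females. The correlations with Ttr, the comparisons that use this library, and the calls of the gene lists described in males are also given without it. Saline males 1 and 2 stood apart from saline male 3 in the myelin gene Mbp, at 25768, 27534, and 8351 CPM. The labelled tissue was checked with 8 brainstem genes. Slc6a5, the glycine transporter of inhibitory neurons, was the most abundant of them, and their summed level lay between 548 and 719 CPM in all 12 libraries. Slc6a5 made up most of that sum, with 479 CPM in the lowest library and 638 CPM in the highest. The sum therefore says little of the less abundant genes and does not by itself settle the tissue. Of these, Dbh ran from 3.34 to 9.63 CPM and Tph2 from 20.2 to 41.6 CPM.

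Per kilobase of exon, a scale on which genes can be set side by side, Ttr and Enpp2 stood far above the other members. The median over the 12 libraries was 263 CPM per kb for Ttr and 232 for Enpp2, and the order of the pair was not settled, since Ttr was above Enpp2 in 6 of 12 libraries. The other 8 medians lay between 0.403 CPM per kb for F5 and 1.62 for Clic6. Enpp2 was above Clic6 in 12 of 12 libraries. Clic6 was above Aqp1, the next in order, in 11 of 12. Aqp1, Folr1, Sostdc1, and Kl followed at 1.34, 1.28, 1.28, and 1.27 CPM per kb, and the gene earlier in this run was above the next in only 5 to 7 of 12 libraries. Kcnj13, at 0.913 CPM per kb, was above Cldn2, at 0.718, in 12 of 12 libraries, and Cldn2 was above F5 in 9 of 12. Exon lengths were those of GENCODE M21.

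Ttr encodes transthyretin, the thyroxine and retinol-binding protein carrier that is the best known product of this epithelium. Its gene lies at chr18:20665280-20674321 on the plus strand of GRCm38. Ttr was at 1.28, 30.9, and 423 CPM in saline females 4, 5, and 6, and at 149, 18.9, and 114 CPM in morphine females 1, 2, and 3. It was at 498, 411, and 238 CPM in saline males 1, 2, and 3, and at 732, 774, and 386 CPM in morphine males 4, 5, and 6. Female levels therefore ran from 44 to 14954 counts, while the males lay between 7758 and 24614 counts. The highest library, morphine male 5, was 603-fold above the lowest, saline female 4. Saline female 6 lay within the male range and the other 5 females lay below every male.

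Folr1 encodes folate receptor alpha, with which the choroid plexus moves folate into the fluid, and lies at chr7:101858331-101870788 on the minus strand. In saline females 4, 5, and 6 Folr1 was at 0, 0.243, and 4.81 CPM, the 0 standing for 0 counts, which allows up to 0.0874 CPM at that depth (3 counts, counting error only). The morphine females had 1.32, 0.288, and 1.17 CPM. Saline males 1, 2, and 3 had 4.26, 3.57, and 2.30 CPM, and morphine males 4, 5, and 6 had 8.68, 7.54, and 5.02 CPM. The 3 morphine males were above the 3 saline males with no overlap. Morphine male 4 was at least 99.3-fold higher than saline female 4.

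**Figure D1:**
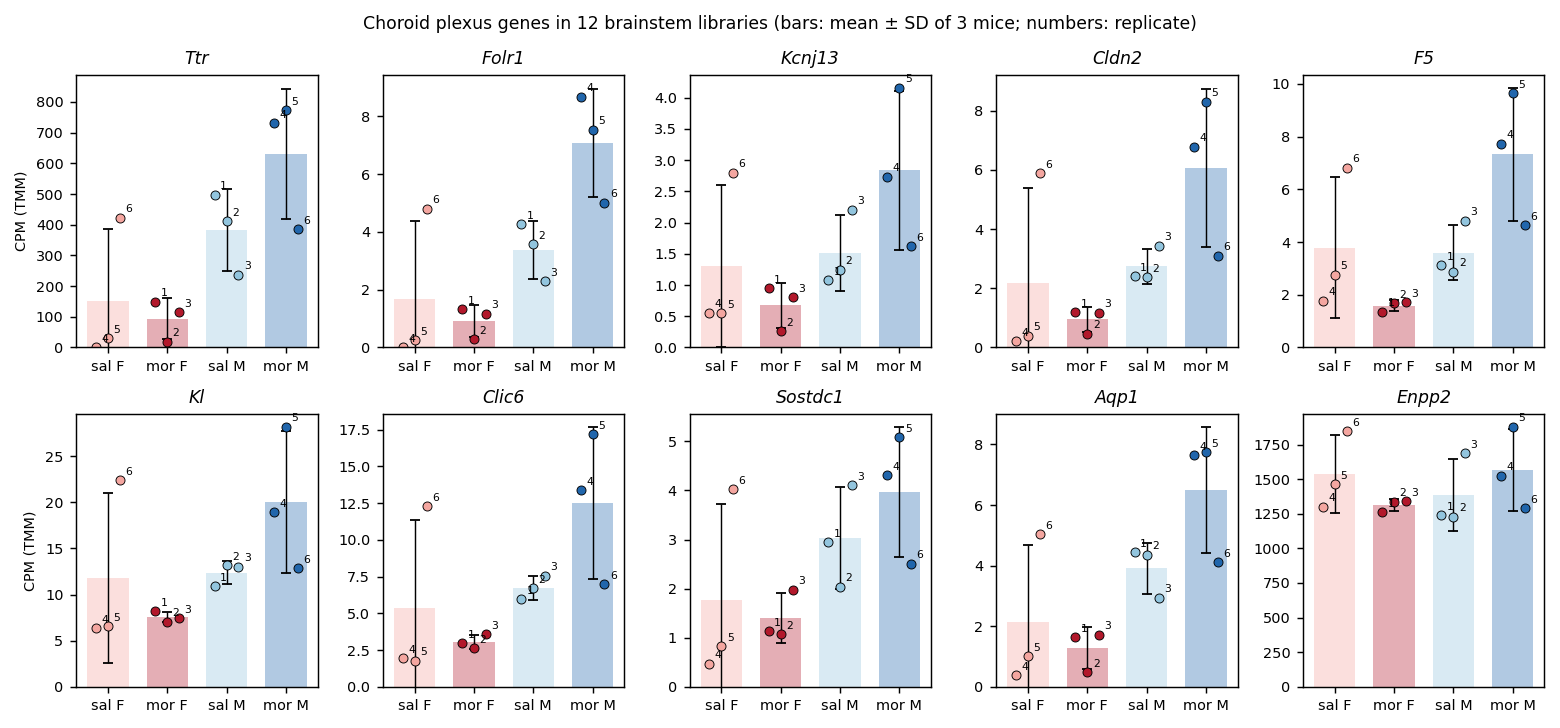
Levels of the 10 members in CPM (vertical axis, from 0, a scale of its own for each gene) in saline females (sal F), morphine females (mor F), saline males (sal M), and morphine males (mor M). Points are single mice with their replicate numbers, and bars and whiskers are the mean ± SD of 3 mice. In 9 of the 10 panels saline female 6 sits far above the other females, and Enpp2 varies least, from 1230 to 1879 CPM.

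Channels and pores of the membrane had their lowest library among the females and their highest among the morphine males. Aqp1, the water channel of the ventricular face, lies at chr6:55336432-55348555 on the plus strand. It was at 0.379, 1.00, and 5.04 CPM in saline females 4, 5, and 6, at 1.63, 0.490, and 1.72 CPM in the morphine females, at 4.44, 4.35, and 2.94 CPM in the saline males, and at 7.64, 7.74, and 4.10 CPM in morphine males 4, 5, and 6. Morphine male 6 lay inside the saline male range and the other 2 morphine males lay above it. Clic6, a chloride intracellular channel family protein (chr16:92485736-92541243, plus strand), ran from 1.76 CPM in saline female 5 to 17.2 CPM in morphine male 5, with 12.3 CPM in saline female 6. Cldn2, the claudin that makes tight junctions permeable to small cations and water, ran from 0.204 CPM (7 counts) in saline female 4 to 8.29 CPM in morphine male 5. Kcnj13, an inwardly rectifying potassium channel of the ventricular face, was the lowest member by mean CPM, at 9 to 127 counts per library.

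The secreted and surface proteins differed more in how far they ranged. F5 encodes coagulation factor V (chr1:164151838-164220277, plus strand). It was at 1.78, 2.77, and 6.82 CPM in saline females 4, 5, and 6, at 1.35, 1.67, and 1.72 CPM in morphine females 1, 2, and 3, at 3.13, 2.87, and 4.81 CPM in the saline males, and at 7.73, 9.64, and 4.64 CPM in morphine males 4, 5, and 6. All 3 morphine females were below all 3 saline females, the closest pair being 1.72 and 1.78 CPM. Kl, which encodes Klotho, the co-receptor for FGF23 (chr5:150952607-150993817, plus strand), ran from 6.35 CPM in saline female 4 to 28.2 CPM in morphine male 5. Sostdc1, a secreted antagonist of BMP signalling (chr12:36314139-36318452, plus strand), ran from 0.466 CPM in saline female 4 to 5.08 CPM in morphine male 5. Enpp2 encodes autotaxin, which makes lysophosphatidic acid (chr15:54838901-54952892, minus strand), and ran only 1.53-fold, from 1230 CPM in saline male 2 to 1879 CPM in morphine male 5. Oligodendrocytes also express Enpp2, so its level does not mark choroid plexus alone.

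The other 9 members were among the most variable genes of the table. Of 15054 genes with a mean of at least 0 on the log2 CPM scale, Ttr ranked 9 by the SD of log2 CPM over the 12 libraries, at an SD of 2.71 against a median of 0.23 over these genes. Folr1 ranked 14, Cldn2 21, Aqp1 28, Kcnj13 47, Clic6 48, Sostdc1 56, F5 90, and Kl 350. Enpp2 ranked 8059, with an SD of 0.22.

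The sequence just before the start of the gene is shown for Kcnj13 and Cldn2, the members whose windows held a searched motif, and for F5, the member that passed the test in both sexes. Each run is the 100 bases before the RefSeq start on the gene's strand (GRCm38.p6), from chr1:87394730-87394829 on the minus strand, chrX:139800708-139800807 on the plus strand, and chr1:164151735-164151834 on the plus strand. Capitals mark TATAAA, the core of a TATA box.
Kcnj13: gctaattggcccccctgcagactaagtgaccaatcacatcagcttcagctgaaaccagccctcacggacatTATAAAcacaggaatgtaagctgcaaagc
Cldn2: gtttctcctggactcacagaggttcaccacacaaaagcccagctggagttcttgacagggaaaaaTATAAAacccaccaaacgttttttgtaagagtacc
F5: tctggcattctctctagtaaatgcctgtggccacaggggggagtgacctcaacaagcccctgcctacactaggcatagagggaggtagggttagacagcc
The motif began 29 bases before the start of Kcnj13 and 35 bases before that of Cldn2. The table of 32851 promoters, 300 bases each, held 5 of the 10 members: Kcnj13, F5, Kl, Aqp1, and Cldn2. On either strand TATAAA was in 2 of these 5 and in 13.6% of all promoters. TAATCC, the letters that OTX homeodomain proteins bind, was in 0 of 5 and in 7.06% of all, and TGTTTAC, a forkhead core, was in 0 of 5 and in 3.65% of all. These are matches of letters and show nothing of binding.

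Kcnj13 lies at chr1:87386363-87394729 on the minus strand, and 49.1% of its 1270 exon bases were shared with exons of Gigyf2 on the other strand. The strand setting of the counting was not given in the sources used here, so reads of the shared part cannot be told apart, and the levels of Kcnj13 are uncertain to that extent. Cldn2 lies at chrX:139800828-139811386 on the plus strand. F5 shared 3.53% of its exon bases and Enpp2 5.97% with genes on the other strand, and the other 7 members shared none.

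From mouse to mouse the members varied together with Ttr, except Enpp2. Over log2 CPM of the 12 mice, Pearson's r with Ttr was 0.99 for Folr1 (Spearman's rho 0.94), 0.95 for Aqp1 (0.99), 0.92 for Cldn2 (0.91), and 0.90 for Sostdc1 (0.90). It was 0.83 for Clic6 (0.87), 0.77 for Kl (0.90), 0.77 for Kcnj13 (0.87), and 0.66 for F5 (0.81). In a two-sided permutation test with 100000 resamples, p for r ran from 1e-05, the smallest that number can give, for Folr1, Aqp1, and Cldn2 to 0.0152 for F5, and p for rho from 1e-05 for Aqp1 to 0.00225 for F5. For Enpp2 r was 0.33 (p = 0.311, permutation test) and rho 0.24 (p = 0.445, permutation test). These were 9 relations, in the same libraries and on the same depth. Without saline female 4 and morphine female 2, the libraries farthest from the Ttr median, r stayed between 0.65 for F5 and 0.99 for Folr1 for the 8 members and was 0.23 for Enpp2. With each group's mean taken out, r was 0.71 to 0.98 for the 8 and 0.47 for Enpp2. Within the 6 females r was 0.44 to 0.98 for the 8, and within the 6 males 0.38 to 0.98. Over the 11 mice without the library labelled morphine male 6, r ran from 0.65 for F5 (p = 0.0244, permutation test) to 0.99 for Folr1 and was 0.38 for Enpp2 (p = 0.258, permutation test).

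**Figure D2:**
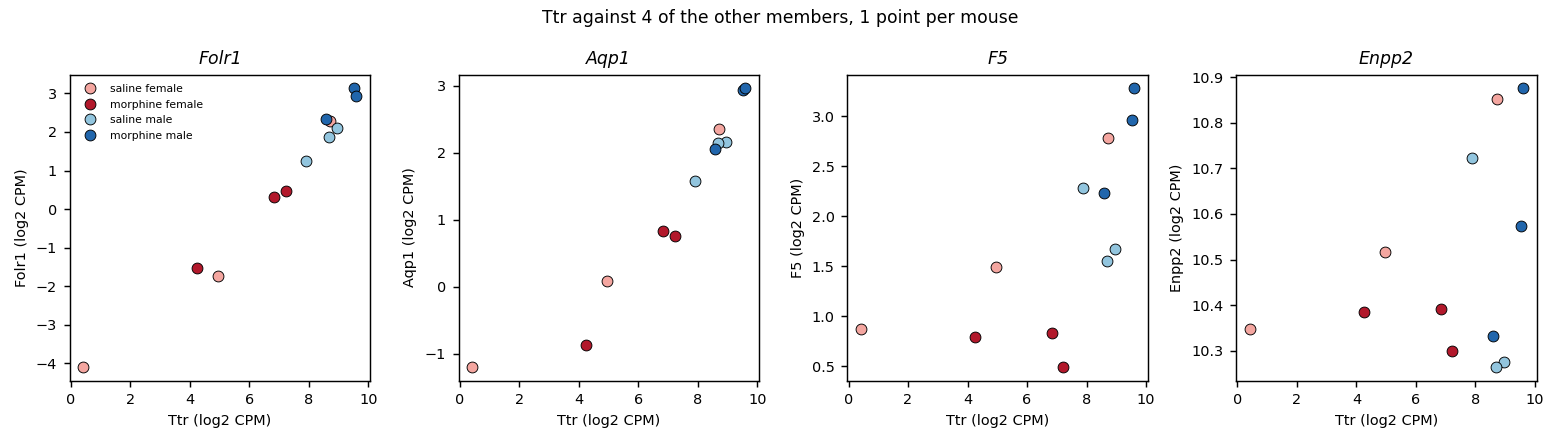
Ttr (horizontal axis, log2 CPM) against Folr1, Aqp1, F5, and Enpp2 (vertical axes, log2 CPM), with 1 point per mouse coloured by group. Folr1 and Aqp1 follow Ttr through the whole range (r of 0.99 and 0.95), F5 less closely (0.66), and Enpp2 shows no clear relation (0.33).

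The ratio of a member to Ttr was steadiest for Folr1. Leaving out saline female 4, whose Ttr count was 44, Folr1 was at 0.787 to 1.53 CPM per 100 CPM of Ttr in the other 11 libraries, with a median of 0.975. Aqp1 was at 0.892 to 3.25 and Cldn2 at 0.485 to 2.44 per 100 of Ttr. F5 spread from 0.628 to 8.96, Kl from 2.19 to 37.4, and Enpp2 from 208 to 7082. In saline female 4 the ratio was 139 for F5 and 495 for Kl, so these RNAs were present where Ttr was nearly absent.

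Genes outside the 10 members were ranked by their likeness to them, as Pearson's r of log2 CPM with the mean z score of the members over the 12 libraries. Of 18598 genes, the 8 highest were Prr32 (0.97), Tmem72 (0.97), the potassium channel subunit Kcne2 (0.95), the bicarbonate transporter Slc4a5 (0.95), the homeobox factor Otx2 (0.95), Col8a2 (0.93), Lbp (0.92), and Gmnc (0.91). Of a list of other choroid plexus genes, 27 were among those compared, and 13 of them had r over 0.8, as had 60 genes, or 0.323%, of all those compared. The members Igfbp2 (0.20) and Col9a3 (0.05) of that list did not follow, and both were highest in saline male 2. Cdkn1c had an r of -0.68.

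**Figure D3:**
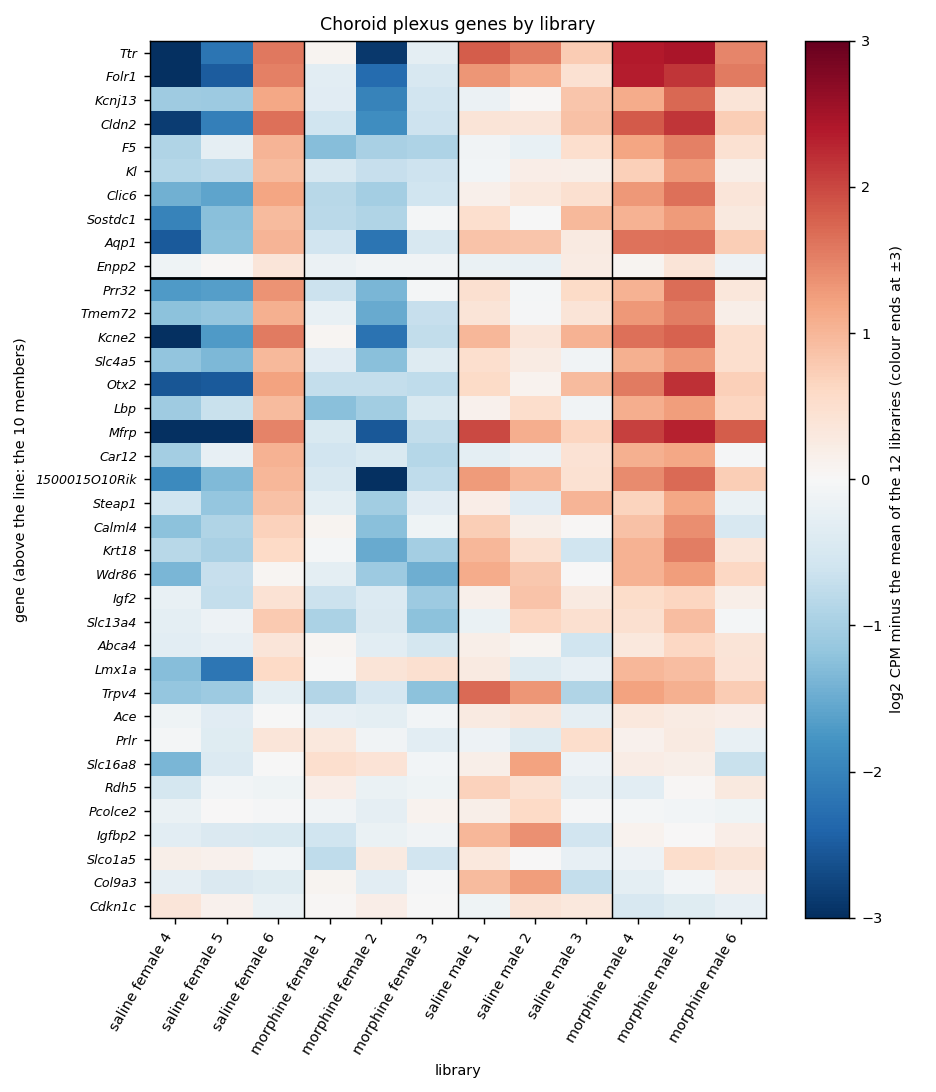
Log2 CPM minus the gene's mean over the 12 libraries (colour, ending at ±3), for the 10 members above the line and 27 other choroid plexus genes below it, ordered by r with the members; columns are libraries in the 4 groups. Saline females 4 and 5 and morphine female 2 are blue and saline female 6 and morphine males 4 and 5 red through the members other than Enpp2 and the upper part of the other list.

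In females, the question was whether morphine changed these genes against saline. F5 fell and no other member passed the test. To be called, a gene needed p under 0.05 before adjustment in the quasi-likelihood test of edgeR and a log2 fold change beyond 0.26 either way. The log2 fold change of F5 was -1.28 ± 0.45 (SE, adjusted p = 1.00 over 18109 genes), and 0.884% of all genes were called lower. Groups did not overlap for F5 alone, against 2.87% of all genes with the morphine females below. The 10 fitted changes were all below 0, with a median of -0.81, where the median of all genes was -0.01. Ttr was at -0.73 ± 1.29, Folr1 at -0.91 ± 1.18, and Cldn2 at -1.24 ± 0.99, with errors about as large as the changes.

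Saline female 6 set the direction in females. Without this mouse 5 members were called higher in morphine females (0.665% of all genes were), the median was 0.80, Ttr was at 2.55 and Folr1 at 2.91, while F5 stayed below 0 at -0.51 and was no longer called. F5 also lost its call without morphine female 1, at -1.17. Without saline female 4, 5 members were called lower, where 2.33% of all genes were, and the median was -1.29. The difference of mean log2 CPM, which gives a single high library less weight than the fit, was 1.40 for Ttr and 0.92 for Folr1, the opposite sign of the fitted change (p = 0.7 and 0.6, exact permutation test, two-sided, of which 0.1 is the smallest p with 3 against 3). Without the filter on low counts 8 members were called lower, where 1.45% of all genes were, and 2 had an adjusted p under 0.05, as had 77 of 34716 genes. With the filter 0 of 18109 genes had. The median of the members hardly moved, from -0.81 to -0.80, so the calls changed through the test and not through the fitted changes.

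In males, 6 of the 10 members rose with morphine: Folr1, Cldn2, F5, Kl, Clic6, and Aqp1, where 1.92% of all genes were called higher. Folr1 had a log2 fold change of 1.06 ± 0.30 (SE), Cldn2 1.13 ± 0.38, F5 1.01 ± 0.34, Clic6 0.88 ± 0.33, Aqp1 0.72 ± 0.30, and Kl 0.68 ± 0.29. Kcnj13 was at 0.90 ± 0.43, Ttr at 0.72 ± 0.34, Sostdc1 at 0.38 ± 0.36, and Enpp2 at 0.16 ± 0.20. The median of the 10 was 0.80, against -0.06 over all genes. The adjusted p of each was 1.00 in edgeR, over 18166 genes. Folr1 alone had groups that did not overlap, against 5.04% of all genes with the morphine males above. Without the library labelled morphine male 6 this held for 9 members. That library was the lowest morphine male by the mean z score of the members, at 0.32 against 1.01 and 1.39. The 5.04% is for 3 against 3 mice, and the share with this library left out is not given here.

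The male calls rested on single mice more than the direction did. The median stayed between 0.61 and 1.06 whichever mouse was left out. Without morphine male 4, morphine male 5, or saline male 2 the number of members called was 1, where 0.982%, 1.32%, and 1.35% of all genes were called higher, and without saline male 1 it was 2, where 1.29% were. Without the library labelled morphine male 6 it was 8, where 1.75% of all genes were called higher, and without saline male 3 it was also 8, but 9.85% of all genes were then called higher. Scaling by total counts, with no composition factors, moved the median of all genes from -0.06 to 0.06 and the share of calls that were higher from 64.3% to 91.3%, and 8 members were then called, where 4.06% of all genes were called higher.

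**Figure D4:**
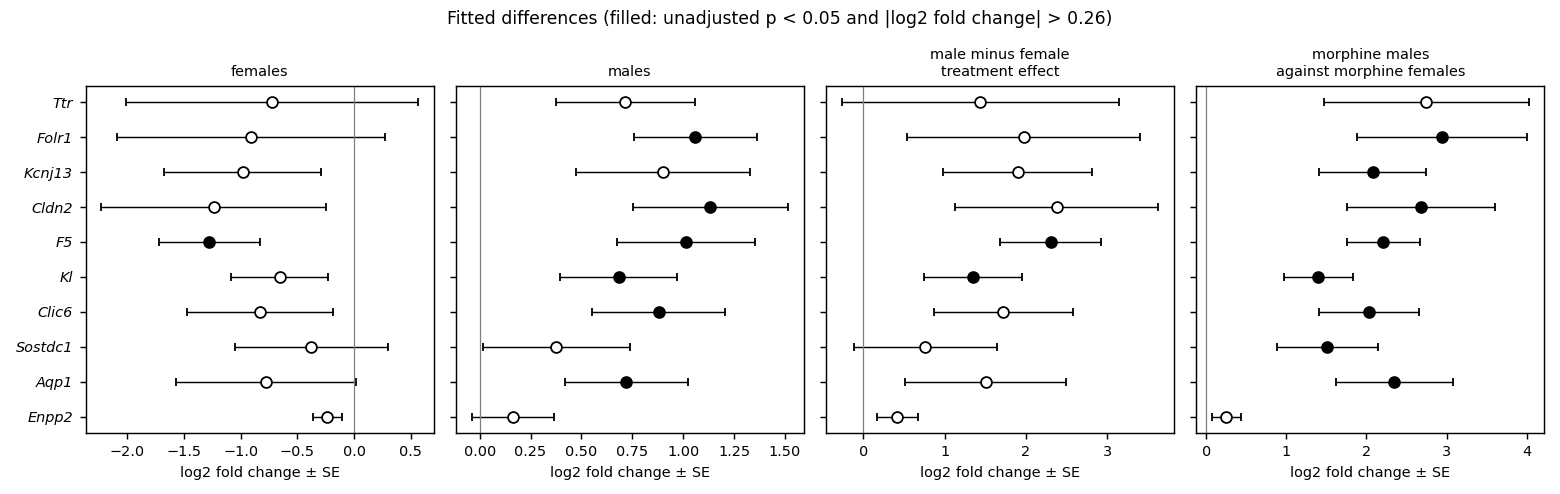
Log2 fold change (horizontal axis) ± SE of the 10 members for morphine over saline in females and in males, the male minus the female change, and morphine males over morphine females. Filled points passed the call. Only F5 is filled in females, 6 members are filled in males, F5 and Kl in the male minus female change, and 8 members in the last panel.

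The same genes were then compared between the sexes' responses, as the male minus the female log2 fold change in 1 fit of the 12 mice. It was 2.30 ± 0.62 for F5 (SE) and 1.35 ± 0.60 for Kl, the 2 members called, where 1.61% of all genes were called higher. The adjusted p was 0.985 for each in edgeR. Cldn2 was at 2.38 ± 1.25 and Ttr at 1.44 ± 1.70. All 10 values were above 0, with a median of 1.61. Without saline female 6 the median was -0.01, with Ttr at -1.84, Folr1 at -1.85, Kl at 0.45, and F5 at 1.53, and F5 was the member still called. F5 was called in each of the 12 fits with a mouse left out, and 7 members were called without saline female 4 (2.75% of all genes called higher), 5 without saline female 5 (1.23%), and 4 without the library labelled morphine male 6 (1.77%). Without saline male 3 it was also 4, but 5.7% of all genes were then called higher. Leaving out 1 of the other 8 mice left F5 as the 1 member called. These contrasts use the same libraries as those within each sex and are not further evidence for them.

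Among morphine mice the members were higher in males. Of the 10, 8 were called higher in morphine males than in morphine females, where 1.63% of all genes were. In 9 of 10 every morphine male was above every morphine female, against 6.72% of all genes, and Enpp2 was the exception. F5 was 4.62-fold higher (log2 2.21 ± 0.46), Aqp1 5.10-fold (2.35 ± 0.73), Cldn2 6.43-fold (2.69 ± 0.92), and Folr1 7.67-fold (2.94 ± 1.06). Ttr was at 2.75 ± 1.28 and Enpp2 at 0.25 ± 0.18. Adjusted p was 1.00 in edgeR, and the median over the 10 lay between 1.85 and 2.41 whichever of the 12 mice was left out. Without the library labelled morphine male 6, 8 were called, where 1.77% of all genes were called higher. Without morphine female 2, the morphine female with the lowest Ttr, 5 were called, where 2.4% of all genes were called higher. Markers of neighbouring tissue were higher in morphine males too. Of 10 meningeal fibroblast genes, 10 were above 0 and 5 were called, with a median of 0.56. Of 7 cerebellar granule cell genes, 7 were above 0 and 2 were called, and of 8 ependymal genes 8 were above 0 and 2 were called. These calls were 5, 3, and 2 without the library labelled morphine male 6. Their part in the members' difference was not tested.

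Among saline mice the same comparison called 0 of the 10 members in edgeR, and 0 had an unadjusted p under 0.05, where 7.62% of all genes were called in either direction. DESeq2 called 0 and limma voom 3, with no share of all genes given here for limma voom. The median was 0.31, and F5 (-0.10 ± 0.43) and Enpp2 (-0.17 ± 0.18) were below 0. Without saline female 6, 8 members were called higher in saline males, where 2.5% of all genes were, and the median was 2.07. Over both treatments, a comparison chosen after the data were seen, 6 of the 10 were called higher in males (Ttr, Folr1, F5, Clic6, Sostdc1, and Aqp1), where 3.05% of all genes were called higher. The exact permutation p of 6 males against 6 females, two-sided, was 0.00866 for Ttr and for Folr1, 0.0108 for Aqp1, 0.0303 for F5, and 0.764 for Enpp2, with 0.00216 the smallest p the design allows. Without the library labelled morphine male 6 it was 0.0173 for Ttr, 0.0216 for Folr1, 0.0152 for Aqp1, 0.0541 for F5, and 0.597 for Enpp2 in the exact permutation test of 5 males against 6 females. The adjusted p of these 6 in edgeR was 0.734. The number called was 1 without morphine female 1 or 2 (4.13% and 2.12% of all genes called higher), 2 without morphine female 3 or morphine male 5 (3.44% and 4.47%), and 3 without saline female 5 or morphine male 4 (1.47% and 2.98%). It was 4 to 9 without 1 of the other 6 mice, 9 without saline female 6 (2.99%) and 6 without the library labelled morphine male 6 (1.68%). Without saline male 3 it was 5, but 17.6% of all genes were then called higher.

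Over both sexes, with sex as a covariate, 0 of the 10 members were called for morphine against saline in edgeR, and 0 had an unadjusted p under 0.05, where 1.19% of all genes were called in either direction. DESeq2 and limma voom also called 0. The values ran from -0.06 for F5 to 0.21 for Folr1, with a median of 0.05. Without saline female 6 the median was 0.72 and 6 members were called higher, where 1.22% of all genes were. Without the library labelled morphine male 6 the median was 0.12 and 0 members were called by edgeR, where 1.17% of all genes were called.

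**Figure D5:**
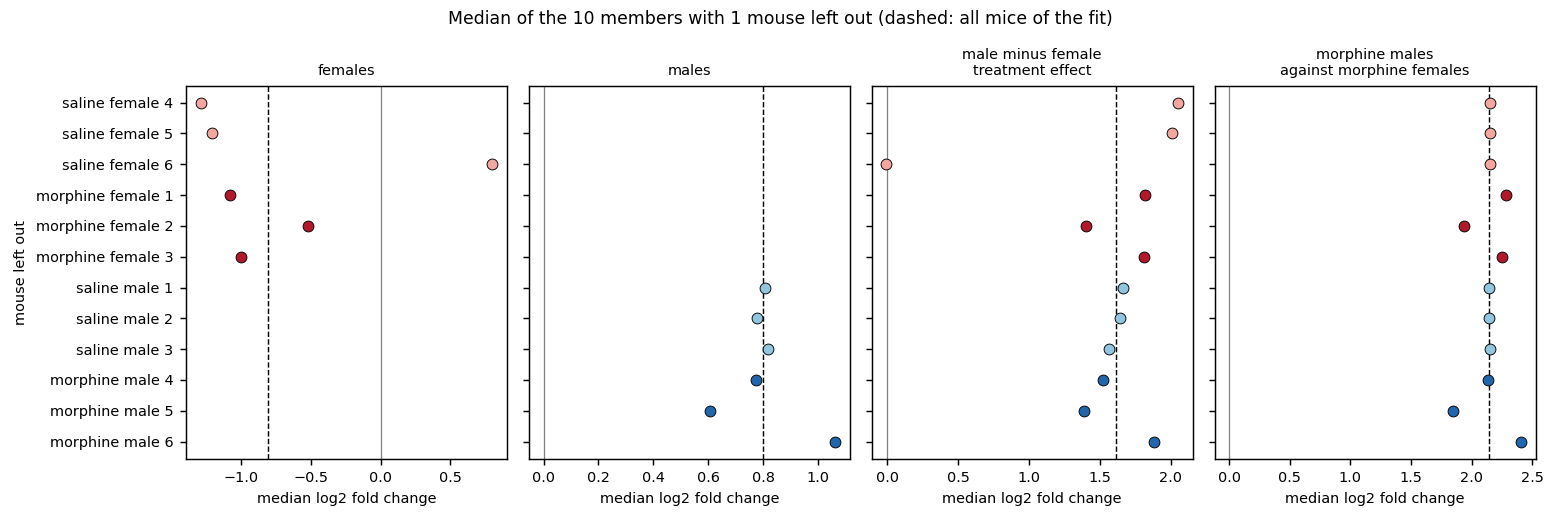
Median log2 fold change of the 10 members (horizontal axis) when the mouse on the vertical axis was left out, in 4 comparisons; the dashed line is the median with all mice and the grey line is 0. Leaving out saline female 6 moves the female median from -0.81 to 0.80 and the male minus female median from 1.61 to -0.01, while every median in males and between morphine males and females stays above 0.

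Other choroid plexus genes from a list of 30 symbols, 29 of them in the table, were read beside the members. In females 26 were tested and 1 was called, Slc13a4, a sulfate transporter, at -1.04 ± 0.31 (SE), with a median of -0.39. Of all genes, 1.81% were called in females, and 1 call in 26 does not stand apart from that share. In males 28 were tested, with a median of 0.28, and 5 rose: the bacterial lipid-binding protein Lbp at 0.83 ± 0.25, the transcription factor Lmx1a at 0.91 ± 0.28, Slc4a5 at 0.75 ± 0.27, Otx2 at 1.02 ± 0.41, and Tmem72 at 0.85 ± 0.34. The cell cycle inhibitor Cdkn1c fell by 0.58 ± 0.19. The number called in males was 6 in all, where 2.99% of all genes were called. It was 1 without morphine male 4 (1.36%) and 10 without the library labelled morphine male 6 (2.47%). Without saline male 3 it was 13, but 28.6% of all genes were then called. The male minus female change was called above 0 for Lbp, the carbonic anhydrase Car12 (1.63 ± 0.64), and Slc13a4, and below 0 for Slc16a8, a gene named here after its values were seen. Of all genes, 1.61% were called above 0 and 253 of 19027 below 0. Between morphine males and females 16 were called higher and 1 lower of 28, with a median of 1.22. Of all genes, 1.63% were called higher and 199 of 19027 lower. Without the library labelled morphine male 6, the male minus female change was called above 0 for 4 and below 0 for 0 by edgeR, Slc16a8 losing its call, and 18 were higher and 1 lower between morphine males and females. Of all genes, 1.77% were called higher in either comparison without that library. The share called lower there is not given here.

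Of the genes that share a pathway with the members, 1 was called for treatment within each sex. The list of 16 partners held folate carriers (Slc19a1, Slc46a1, Folr2), retinol handling (Rbp4, Stra6), FGF23 and its receptor, and lysophosphatidic acid receptors and phosphatases, and 15 were tested. In females 1 was called, Rbp4, the plasma retinol-binding protein that transthyretin carries, at -0.71 ± 0.23 (SE), and in males 1, the receptor Lpar1, at -0.29 ± 0.12. Of all genes, 328 of 18109 were called in females and 2.99% in males. The medians of the partners were -0.01 and -0.02. Lpar1 was not called without the library labelled morphine male 6. Between the sexes more were called. Of the 15, 5 were called higher in all males than in all females, among them the folate carrier Slc19a1 and the retinol receptor Stra6, and 2 without the library labelled morphine male 6. Of all genes, 3.05% were called higher in all males, and 1.68% without that library. Among saline mice 2 partners were called higher in males, where 1199 of 19027 genes were. Among morphine mice 2 were, where 1.63% of all genes were. Of 10 genes of the fluid secretion machinery (sodium pump subunits, the cotransporter Slc12a2, carbonic anhydrase, anion exchangers, and potassium and water channels), 0 were called by edgeR in females or in males, and 0 had an unadjusted p under 0.05. Many of these are also expressed in neurons and astrocytes, and the summed level ran only 1.20-fold over the libraries, from 3962 to 4771 CPM.

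Markers of neighbouring tissue moved with some of these results. Of 10 meningeal fibroblast genes, 5 fell in females (Dcn, Fmod, Slc6a13, Aldh1a2, and Mgp), with a median of -0.63, where 0.884% of all genes were called lower. The summed level of the 10 was 165 to 233 CPM in saline females, 98.7 to 170 in morphine females, 154 to 243 in saline males, and 147 to 215 in morphine males. Saline female 6 had the highest sum of the females. Of 7 cerebellar granule cell genes, 3 rose in males (Gabra6, Fat2, and Cbln3), with a median of 0.60, where 1.92% of all genes were called higher. Their summed level was 110 to 150 CPM in saline females, 118 to 132 in morphine females, 107 to 150 in saline males, and 130 to 200 in morphine males. It was highest in morphine male 5, as were 9 of the 10 members. Of 10 oligodendrocyte genes, Cldn11 and Mobp fell in males, where 194 of 18166 genes were called lower. The summed level was 40160 to 62106 CPM in saline males against 34701 to 43836 in morphine males. The high sums were those of saline males 1 and 2, at 59125 and 62106 CPM, which also stood apart in Mbp. Saline male 3, at 40160 CPM, lay inside the morphine male range. Of 8 ependymal genes tested, 1 was called in females, Pifo, and 0 in males. Of all genes, 328 of 18109 were called in females and 543 of 18166 in males. The summed level of all 10 genes of that list, 9.22 to 25.1 CPM over the 12 libraries, was highest in saline males 1 and 2. No marker in these lists was at 0 in all libraries of a group, apart from 1 red blood cell gene. In males without the library labelled morphine male 6, 4 cerebellar granule cell genes, 2 oligodendrocyte genes, and 0 meningeal or ependymal genes were called by edgeR. Of all genes, 2.47% were called without that library. The part of these cell types in the members' results was not tested.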

How the data were processed

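RNA-seq of 12 brainstems was used. Per the study's methods, the authors used scruff for preprocessing, Trimmomatic for trimming, STAR for alignment (mm10), and featureCounts with exons of an Ensembl GRCm38 annotation for counts per gene. Reads were 100 bp, single-end, on 1 lane. The study's text calls the deposited values normalized, but they are whole numbers with unequal totals and were treated as raw counts. The strand setting was not given in the sources used here. The tissue label is brainstem, whereas the extraction text names spinal cords.

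Groups came from the labels. Counts were fitted with edgeR 4.0.16 in R 4.3.3 (TMM, filterByExpr, quasi-likelihood test), each sex alone, over both sexes with sex as a covariate, and as 4 group means of the 12 mice. Calls used the study's thresholds, p under 0.05 with a log2 fold change beyond 0.26 in either direction, with Benjamini-Hochberg adjustment over all genes tested. Nothing in the labels says that mice came from separate litters, so p-values measure the spread between these mice. Log2 CPM took a prior count of 2. Alternatives were exactTest, DESeq2 1.42.0, limma 3.58.1 voom, 2 other scalings, 2 other filters, thresholds on p alone, a replicate block, a fit with no covariate, and leaving out each mouse. The comparison of all males with all females, the TATAAA search, and the lists, correlations, and permutation tests without the library labelled morphine male 6 were chosen after seeing the data. The members and lists were chosen with earlier results of these data known. Genes named besides the members were, at most, 8 of the other choroid plexus list that were called in a treatment fit, 3 called or most abundant per marker list, and the 8 most alike. The fits were also run on simulated counts with known changes, given to well-counted genes at a single fixed spread. The members vary more and reach lower counts, so that run does not test their calls. Promoters came from RefSeq (GRCm38.p6), of which 5 members matched, and gene positions from GENCODE M21. In the pathway partner list, 1 gene is counted in the list totals and is not reported here.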

Additional observations from a re-analysis of the deposited data

Results flagged for a closer look

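Among the 6 female mice, saline female 6 was set apart from the other 5 in 9 of the 10 members, its gap to the next mouse being over 0.625 of the whole range. Its levels were 423 CPM for Ttr, 4.81 for Folr1, 2.80 for Kcnj13, 5.89 for Cldn2, 6.82 for F5, 22.4 for Kl, 12.3 for Clic6, 5.04 for Aqp1, and 1849 for Enpp2. Sostdc1, at 4.02 CPM, was also highest there but its gap was smaller. The 9 are not independent, since the members vary together. Each gene was examined in 4 sets of 6 mice (saline, morphine, female, male), 40 sets in all. For normally distributed values, chance sets a mouse apart in about 1 set in 20. No member had such a mouse in the other 30 sets. The gaps were taken on CPM, and that rate need not hold for levels as skewed as these. On the log2 scale Ttr was at 8.73 in saline female 6, 7.22 in the next female, and 0.42 in the lowest. Kl was at 4.49, 3.05, and 2.68, so its gap stayed most of the range while that of Ttr did not.

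The change with morphine was called different between the sexes for F5, by 2.30 on the log2 scale (males minus females), and for Kl, by 1.35, each by the test of the difference in edgeR (adjusted p = 0.985 for both). F5 was lower in 3 of 3 morphine females than in any saline female and was higher in 2 of 3 morphine males than in any saline male.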

How the results depend on the processing

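With 3 mice per group and 7 to 253 counts for a gene such as Cldn2, a single library can move a fitted change by more than its error. Without 1 mouse, members called ran from 0 to 5 in females, 1 to 8 in males, 0 to 6 over both sexes, 1 to 7 for the male minus female change, 0 to 8 between saline sexes, 5 to 9 between morphine sexes, and 1 to 9 between all males and females. Medians ran from -1.29 to 0.80 in females, -0.13 to 0.72 over both sexes, -0.0065 to 2.05 for the male minus female change, and -0.11 to 2.07 between saline sexes. Calls among the other choroid plexus genes ran from 1 to 6 in females, 1 to 13 in males, 0 to 7 over both sexes, and 1 to 8 for the male minus female change.

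In females the log2 fold change without 1 mouse ran from -1.30 to 2.55 for Ttr, -1.49 to 2.91 for Folr1, -1.35 to 0.28 for Kcnj13, -1.78 to 1.65 for Cldn2, -0.96 to 0.23 for Kl, -1.23 to 0.72 for Clic6, -0.83 to 1.11 for Sostdc1, and -1.28 to 0.89 for Aqp1. Over both sexes it ran from -0.20 to 1.47 for Ttr, -0.031 to 1.496 for Folr1, -0.22 to 0.67 for Kcnj13, -0.18 to 1.29 for Cldn2, -0.30 to 0.36 for F5, -0.17 to 0.48 for Kl, -0.14 to 0.81 for Clic6, -0.12 to 0.65 for Sostdc1, -0.13 to 0.78 for Aqp1, and -0.11 to 0.055 for Enpp2. The male minus female change ran from -1.84 to 2.00 for Ttr, -1.85 to 2.54 for Folr1, -0.51 to 2.89 for Cldn2, -0.74 to 1.20 for Sostdc1, and -0.17 to 1.99 for Aqp1. Between saline sexes it ran from -0.17 to 1.48 for Kcnj13, -0.20 to 3.21 for Cldn2, -0.41 to 0.69 for F5, -0.22 to 0.96 for Kl, -0.071 to 1.89 for Clic6, and -0.31 to 0.035 for Enpp2, and between all males and females from -0.049 to 0.16 for Enpp2. The 10 changes in males and between morphine sexes kept their sign in every fit run.

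With limma voom, members called were 0 in females, 3 in males, 1 for the male minus female change, and 3 between saline sexes. Ttr was then at 1.39, Folr1 at 1.53, Cldn2 at 0.079, and Sostdc1 at 0.17 in females, Ttr at -0.66 and Folr1 at -0.44 for the male minus female change, and F5 at 0.20 over both sexes and 0.079 between saline sexes. With no filter 8 members were called in females and 7 for the male minus female change, the contrast from the fit of all 12 mice called 1 in males, and at least 10 counts in every library, which left 7 members, called 5 between morphine sexes. Scaling by total counts called 2 other choroid plexus genes in females and put Enpp2 at 0.027 over both sexes and Kl at -0.0042 between saline sexes. Over both sexes, F5 was at 0.28 with exactTest and with no covariate, and Cldn2 at -0.016 with DESeq2. The causes were not tested. The shares of all genes called by limma voom, and with no filter for the male minus female change, are not given here. The members called there therefore stand without a background. With the replicate block, over both sexes, the median was 0.28, F5 was at 0.0012, and 0 members were called. Same-numbered saline and morphine mice are of opposite sex and their deviations correlated at -0.36 to 0.18, so the numbers name the mice and do not pair them.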

Other observations

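Lists of other cells in the brainstem gave few calls in either sex. In females 0 of 6 neuron, 0 of 6 astrocyte, 0 of 6 microglia, 0 of 8 endothelial, 0 of 10 oligodendrocyte, 0 of 6 red blood cell, and 0 of 8 brainstem identity genes were called by edgeR, a call being an unadjusted p under 0.05 with a log2 fold change beyond 0.26. In males the counts were the same except for the 2 oligodendrocyte genes that fell. Of all genes, 1.81% were called in females and 2.99% in males, so few calls are due in lists this short. The median in males was -0.22 for astrocyte genes (6 of 6 below 0) and -0.53 for red blood cell genes (6 of 6). It was -0.20 for neuron (5 of 6), -0.27 for microglia (5 of 6), and -0.25 for oligodendrocyte genes (10 of 10), against -0.06 over all genes. In the endothelial and brainstem identity lists 4 of 8 were below 0. The summed level over the 12 libraries ran 1.17-fold for the endothelial list, 1.30-fold for the astrocyte list, 1.31-fold for the neuron list, 1.31-fold for the brainstem identity list, and 1.57-fold for the microglia list. It ran 4.22-fold for the red blood cell list, which was highest in saline male 1 at 474 CPM. In females 1 cerebellar granule cell gene was called, Zic2, at -0.27 ± 0.12 (SE).

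As a mean z score of the 10 members, the lowest library was saline female 4 (-1.52), followed by morphine female 2 (-1.09) and saline female 5 (-0.90), and the highest were morphine male 5 (1.39), saline female 6 (1.01), and morphine male 4 (1.01). The 3 saline males lay between 0.12 and 0.52 and the library labelled morphine male 6 at 0.32. On the members the spread within the 3 saline females was wider than the spread within either group of males.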
